A study of Mus musculus with 4 samples.

Results

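The oligoadenylate synthetases are the enzymes that sense double-stranded RNA and answer it with a small messenger, and 8 of their genes (Oas1a, Oas1b, Oas1c, Oas1g, Oas2, Oas3, Oasl1 and Oasl2) were followed here in MC38 cells, a mouse colon carcinoma line. The 8 genes were chosen by name, through their NCBI gene IDs, from the 27179 genes of the count table, and all 8 were found in it. All 8 passed the filter on low counts that left 13580 genes for testing.

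The MC38 cells were wild type in all 4 conditions, which were untreated control cells in normoxia, untreated control cells in hypoxia, IFN-γ treated cells in normoxia and IFN-γ treated cells in hypoxia. The study's methods give 5 ng/mL IFN-γ for 24 h in most experiments, and 20% and 1.5% oxygen for normoxia and hypoxia. How long the cells were kept in hypoxia was not stated. Each condition was sequenced as 1 library of poly-A RNA from a single sample, so no difference below has a replicate check.

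When an oligoadenylate synthetase binds double-stranded RNA, it links ATP into 2-5A, short chains of adenylate joined by 2′-5′ bonds. 2-5A is a second messenger of the antiviral defence, and its downstream effects limit protein synthesis in infected cells. The genes are best known as interferon-stimulated genes, which type I interferons raise through the interferon-stimulated response element (ISRE) in promoters, while IFN-γ, the type II interferon, acts mainly through another element, the gamma-activated site (GAS). Not every family member makes 2-5A: Oasl1 and several mouse Oas1 copies have lost the activity.

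Library totals lay between 34302971 and 34537939 counts, so 3 counts, taken as the limit of detection, equalled 0.0869 to 0.0875 CPM, the counts scaled by library size. The cells carried little of the colon epithelium programme: of 8 markers, Cdh1 and Cdx2 had 0 counts in every library and none exceeded 90 counts. Among 4 mesenchymal markers, Vim had 74838 to 81307 counts, Fn1 13791 to 20142, Cdh2 693 to 806 and Zeb1 241 to 351. Of 7 leukocyte markers, Itgam and Adgre1 had 0 counts in every library and none exceeded 236. Interferon mRNA itself was at or under the limit, with 2, 0, 2 and 2 counts of Ifnb1 in control normoxia, control hypoxia, IFN-γ normoxia and IFN-γ hypoxia, and 0 counts in every library for Ifna1, Ifna2, Ifna4, Ifnl2, Ifnl3 and Ifng. Changes of these 7 ligand genes were not detectable at this depth.

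IFN-γ raised 6 of the 8 synthetase genes and lowered 0 at an adjusted p under 0.05, against 4.76% raised and 1.1% lowered among all genes tested. The test was edgeR's quasi-likelihood test in a model with IFN-γ and oxygen as additive terms, which reads its spread from how far the 4 libraries depart from additivity. Oas1a, Oas1b, Oas1g, Oas2, Oas3 and Oasl2 were raised, each between 1.77-fold and 2.73-fold. Oas1c and Oasl1 did not pass the test. The same 6 genes had both IFN-γ libraries above both control libraries in normalized counts, as did 15.3% of all genes tested. The median log2 change over the 8 genes was 0.94, and over all genes tested it was -0.01. With any 1 library left out, oxygen had to be dropped from the model, and most such fits lost all or nearly all of the 6 calls. The log2 changes of the 6 members over these fits ran from 0.77 for Oas1a, without control normoxia, to 1.55 for Oasl2, without IFN-γ normoxia. In bulk RNA, a higher level per cell and a larger share of cells expressing a gene cannot be told apart.

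**Figure D1:**
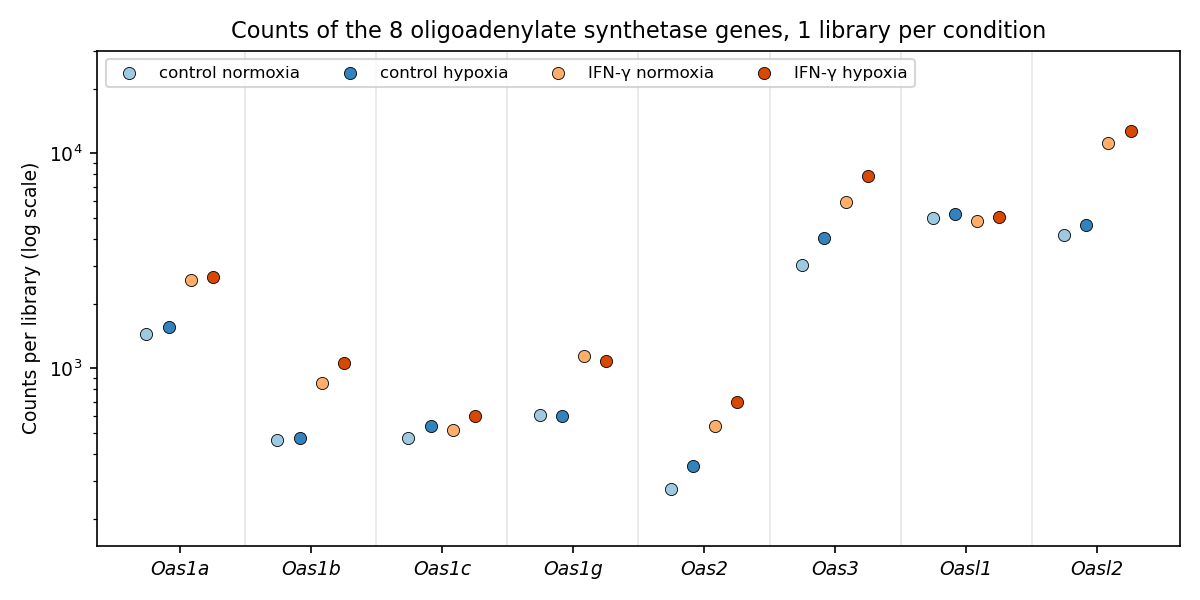
Counts of each of the 8 genes in each of the 4 libraries on a log axis, 1 point per library. Oasl2 moved from 4171 and 4640 counts in the controls to 11137 and 12670 with IFN-γ, while the 4 points of Oasl1 lie between 4856 and 5223.

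Oas1a and Oas1g encode the Oas1 copies of the mouse that are active synthetases. Oas1a (gene 246730, chr5:120896256-120907544 in GRCm38, the assembly also called mm10) had 1441 counts in control normoxia, 1552 in control hypoxia, 2567 in IFN-γ normoxia and 2673 in IFN-γ hypoxia. Both IFN-γ libraries were above both controls, and IFN-γ raised the gene by 0.82 on the log2 scale (standard error 0.0708, edgeR adjusted p = 5.18e-29). Oas1g (gene 23960, chr5:120876142-120887613) had 609, 599, 1144 and 1078 counts in the same order. Its log2 change was 0.89 (standard error 0.0867, edgeR adjusted p = 7.6e-23). The genes are near copies of each other. Of the 31-base words in its annotated transcripts, Oas1a shares 68.7% with Oas1g, and Oas1g shares 54.6% with Oas1a, so reads may have been assigned to the wrong copy or dropped. Their summed counts were 2050 and 2151 in the controls and 3711 and 3751 with IFN-γ, a rise of 1.83-fold in normoxia (95% counting interval 1.73 to 1.93) and 1.76-fold in hypoxia (1.67 to 1.86). The ratio of Oas1a to Oas1g stayed between 2.24 and 2.59 in the 4 libraries, with 95% counting intervals that overlapped between control and IFN-γ at each oxygen level; how far shared reads hold this ratio steady was not tested.

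Oas1b and Oas1c stand head to head. In RefSeq, Oas1b (gene 23961, chr5:120812635-120824163, plus strand) is a transcribed pseudogene, since laboratory strains such as C57BL/6, from which MC38 derives, carry a stop codon in it that is tied to flavivirus susceptibility. Oas1c (gene 114643, chr5:120800194-120812540, minus strand) is one of the copies without synthetase activity. Oas1b had 463 counts in control normoxia, 474 in control hypoxia, 852 in IFN-γ normoxia and 1058 in IFN-γ hypoxia. IFN-γ raised it by 1.04 on the log2 scale (standard error 0.0934, edgeR adjusted p = 1.86e-26). Oas1c had 476, 542, 517 and 604 counts, and its libraries overlap between control and IFN-γ. With IFN-γ it moved by 0.15 on the log2 scale (standard error 0.103, edgeR adjusted p = 0.595). The ratio of Oas1b to Oas1c counts was 0.973 (95% counting interval 0.854 to 1.11) in control normoxia and 0.875 (0.771 to 0.991) in control hypoxia. With IFN-γ it was 1.65 (1.48 to 1.84) in normoxia and 1.75 (1.58 to 1.94) in hypoxia, above both control intervals. Oas1b shares 6.7% of its 31-base words with any other gene and Oas1c 20.7%, at most 11.8% with 1 gene, Oas1e.

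Oas1a, Oas1g and Oas1b carry the same ISRE letters at nearly the same distance from the starts used here. The sequences below are shown because they set the raised genes Oas1a, Oas1g and Oas1b, and Oas3, beside the start of Oas1c, which did not pass the test. They were read from RefSeq's GRCm38.p6 and end at the last base before the start annotated in the promoter table, although some transcripts of Oas1a, Oas1c and Oas3 begin a little upstream of it (for Oas1b and Oas1c, all 120 bases between the starts are given, on the strand of Oas1b). Capitals mark matches to the ISRE letters, GAAA, any 2 bases and GAAA again, searched on both strands. In the Oas1 sequences the capitals are a pair of matches that overlap.
Oas1a (chr5:120907526-120907585, minus strand): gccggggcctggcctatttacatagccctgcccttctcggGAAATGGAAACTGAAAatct
Oas1g (chr5:120887614-120887673, minus strand): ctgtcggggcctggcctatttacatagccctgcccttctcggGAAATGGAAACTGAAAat
between Oas1c and Oas1b (chr5:120812515-120812634, plus strand): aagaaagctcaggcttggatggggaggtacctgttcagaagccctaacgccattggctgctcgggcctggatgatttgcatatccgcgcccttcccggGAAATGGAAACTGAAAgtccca
Oas3 (chr5:120777660-120777759, minus strand): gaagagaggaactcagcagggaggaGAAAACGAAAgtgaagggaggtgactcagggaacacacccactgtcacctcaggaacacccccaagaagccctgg

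Counted from the start, with -1 the base before it, the capitals span -20 to -5 for Oas1a, -18 to -3 for Oas1g, -22 to -7 for Oas1b and -75 to -66 for Oas3. The distance for Oas1a depends on the start taken. Its annotated gene reaches to chr5:120907544, which places most of its capitals inside the gene. For Oas1c the letters it shares with Oas1b span -114 to -99 and read on the other strand. Of the 8 genes, 6 are in the table of promoter windows, which run from 250 bases before to 50 after each start. Oas1b and Oas2 are not in it. Among the 6, Oas1a, Oas1g, Oas1c and Oas3 hold the ISRE letters and Oasl1 and Oasl2 do not, and among all 32851 windows 3.44% hold them. The GAS letters TTCNNNGAA, which read the same on both strands, occur in the window of Oas1a alone among the 6 and in 8.3% of all windows. A match describes the letters of a window and is not a measured binding site.

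**Figure D2:**
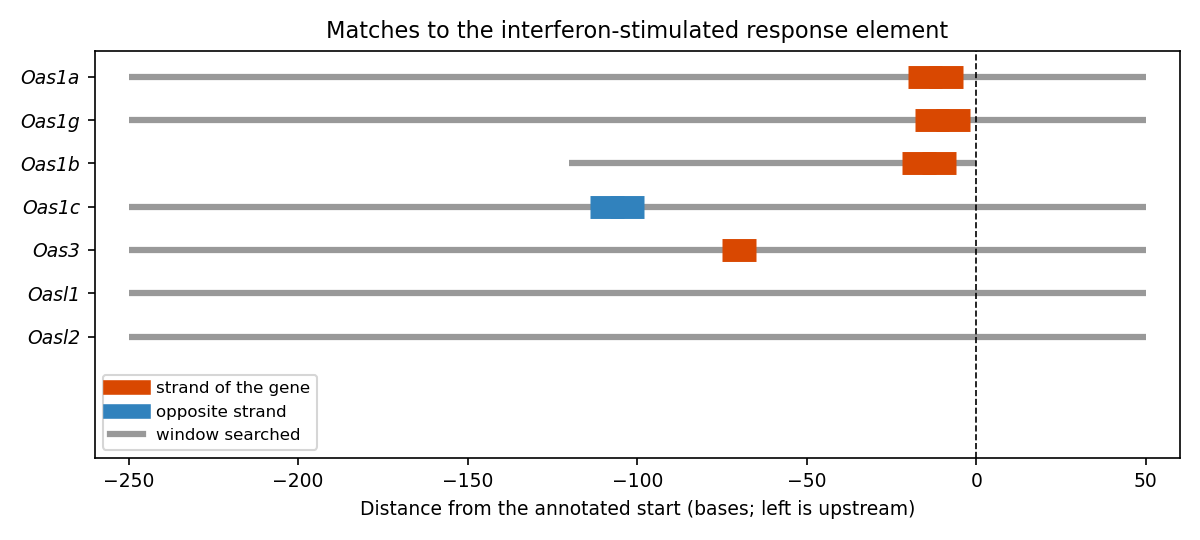
Position of matches to the ISRE letters around the annotated starts of 7 of the genes, in bases, with orange blocks on the strand of the gene and a blue block on the opposite strand. The grey lines show the window searched, which for Oas1b is the 120 bases up to the start of Oas1c; the blocks of Oas1a, Oas1g and Oas1b sit within 22 bases of the start.

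Oas2 and Oas3 are larger enzymes in which the synthetase unit is repeated, and Oas3 is the family member that responds to long double-stranded RNA. Oas3 (gene 246727, chr5:120753098-120777684) had 3013 counts in control normoxia, 4050 in control hypoxia, 5965 in IFN-γ normoxia and 7811 in IFN-γ hypoxia. IFN-γ raised it by 0.98 on the log2 scale (standard error 0.0592, edgeR adjusted p = 1e-58). Oas2 (gene 246728, chr5:120730333-120749886) was counted far less often, with 274, 352, 540 and 699 counts. Its log2 change was 0.998 (standard error 0.111, edgeR adjusted p = 2.05e-17). The 4 libraries stand in the same order for both genes, with control normoxia lowest and IFN-γ hypoxia highest. Oas1a, Oas1b and Oasl2 showed that same order of all 4 libraries. Oas2 and Oas3 were each the nearest of the other 7 members to the other, at a distance of 0.0509 between their 4 centred log2 values. They share no reads to speak of, since Oas2 has 0 of its 31-base words in another gene and Oas3 has 2.05%. With oxygen left out of the model, the adjusted p for IFN-γ was 0.0575 for Oas2 and 0.0519 for Oas3, at log2 changes of 0.998 and 0.977.

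Oasl1 and Oasl2 carry ubiquitin-like domains behind the synthetase fold. Oasl2 still makes 2-5A, whereas Oasl1 does not and is known as a brake on the translation of Irf7. Oasl2 (gene 23962, chr5:114896926-114912245) had 4171 counts in control normoxia, 4640 in control hypoxia, 11137 in IFN-γ normoxia and 12670 in IFN-γ hypoxia. Its log2 change of 1.45 was the largest of the 8 (standard error 0.0561, edgeR adjusted p = 2.35e-140) and ranked 188 among the 13580 genes, while the other 5 raised members ranked from 300 to 384. Over 5 alternative fits of all 4 libraries, the adjusted p of Oasl2 ran from 1.33e-92 in DESeq2's Wald test to 0.000735 in edgeR with oxygen left out. Oasl1 (gene 231655, chr5:114923143-114937911), its neighbour on the chromosome, had 5010, 5223, 4856 and 5053 counts. With IFN-γ it moved by -0.03 on the log2 scale (standard error 0.0587, edgeR adjusted p = 0.922). The 95% counting interval of its fold change was 0.941 to 1.02 in normoxia and 0.939 to 1.01 in hypoxia, so a rise of the size seen for the 6 raised members lay outside it. Counts of Oasl2 per count of Oasl1 went from 0.833 (0.799 to 0.868) and 0.888 (0.854 to 0.924) in the controls to 2.29 (2.22 to 2.37) and 2.51 (2.43 to 2.59) with IFN-γ, in normoxia and hypoxia.

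The paralogs were also summed. The 4 Oas1 genes together had 2989 and 3167 counts in the controls and 5080 and 5413 with IFN-γ, a rise of 1.72-fold in normoxia (95% counting interval 1.64 to 1.80) and of 1.72-fold in hypoxia (1.65 to 1.80). The 2 Oasl genes together rose 1.76-fold (1.71 to 1.80) and 1.81-fold (1.77 to 1.86). All 8 genes had 15457 counts in control normoxia, 17432 in control hypoxia, 27578 in IFN-γ normoxia and 31646 in IFN-γ hypoxia. That is a rise of 1.80-fold (1.77 to 1.84) in normoxia and 1.83-fold (1.80 to 1.87) in hypoxia, and without Oasl2 of 1.47-fold and 1.5-fold. The sums are given as descriptions of these libraries, with no p.

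Per length, the family was led by Oasl1 in the controls and by Oasl2 with IFN-γ. Levels between genes were compared as CPM per kilobase of the longest annotated transcript. Oasl1 stood at 66.3 and 69.3 in control normoxia and control hypoxia, ahead of Oasl2 at 38.6 and 43. With IFN-γ, Oasl2 stood at 104 in normoxia and 118 in hypoxia, and Oasl1 at 64.9 and 67.6. Oasl1 thus made up 39.1% of the family's level in control normoxia and 22.7% in IFN-γ normoxia, and Oasl2 22.7% and 36.3%. Behind them came Oas1a (22.1 to 41.4 over the 4 libraries) and Oas3 (18.4 to 48.3), which changed places: Oas1a was ahead in both normoxic libraries and Oas3 in both hypoxic ones. Oas1g, Oas1b and Oas1c lay between 6 and 16.9, and Oas2 was lowest in every library at 2 to 5.15. Taking the shortest annotated transcript instead kept Oasl1 first in the controls and Oasl2 first with IFN-γ, while the order of the others changed. Oas1a and Oas3 then no longer changed places. Oas3 was ahead in every library, at 121 against 22.1 in control normoxia and 316 against 41.4 in IFN-γ hypoxia.

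**Figure D3:**
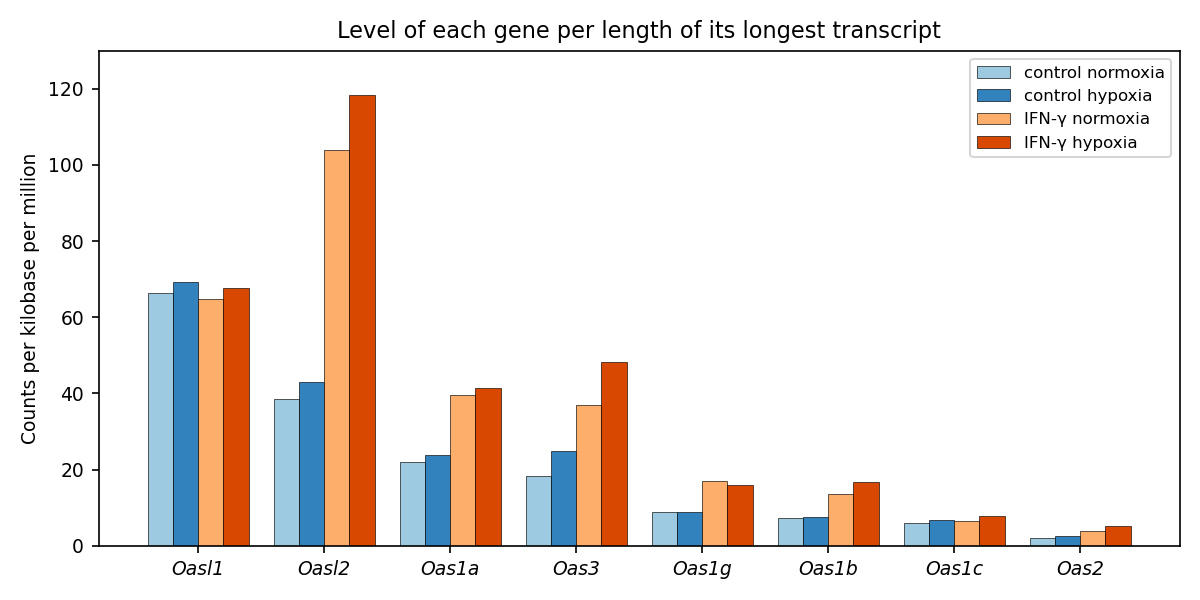
Level of each gene in CPM per kilobase of its longest transcript, 1 bar per library with no error bar because each condition is 1 library. Oasl1 is the tallest in both control libraries and Oasl2, at 104 and 118, in both IFN-γ libraries.

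Hypoxia raised 3 of the 8 genes, Oas2, Oas3 and Oasl2, and lowered 0, against 8.21% raised and 6.83% lowered among all genes tested. Oas3 changed most, with 3013 against 4050 counts in the control pair and 5965 against 7811 in the IFN-γ pair, a rise of 1.35-fold (95% counting interval 1.28 to 1.41) and 1.31-fold (1.27 to 1.36). Taking both pairs together, hypoxia raised it by 0.41 on the log2 scale (standard error 0.0588, edgeR adjusted p = 2.74e-10), and DESeq2's test made the same call. Oas2 rose by 0.37 (standard error 0.111, edgeR adjusted p = 0.0091) and Oasl2 by 0.17 (standard error 0.0553, edgeR adjusted p = 0.0167), neither of which DESeq2 called. Oas1a, Oas1b, Oas1c, Oas1g and Oasl1 did not pass, with log2 changes from -0.06 to 0.21. The median over the 8 genes was 0.18, against 0.00 over all genes tested, and 0 members were raised once IFN-γ was left out of the model or any of the 4 libraries was dropped. The fits with a library dropped raised 0 to 60 genes in all.

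**Figure D4:**
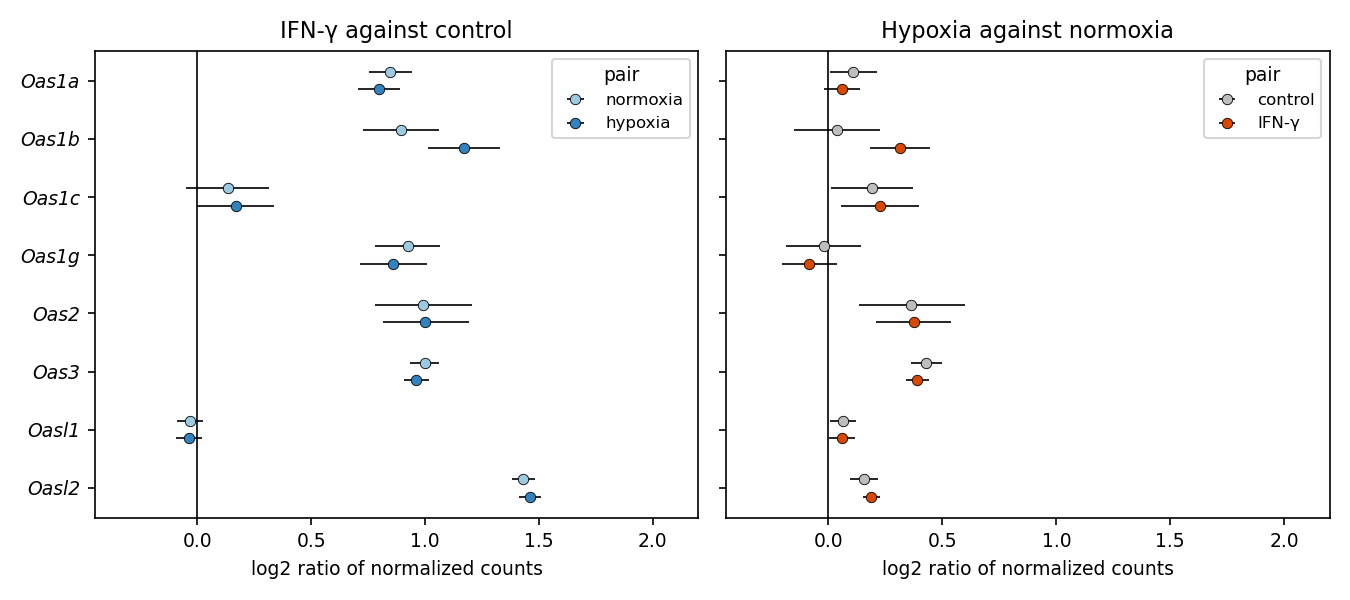
Log2 ratios of normalized counts for IFN-γ against control within each oxygen level (left) and for hypoxia against normoxia without and with IFN-γ (right), with 95% counting intervals of the 2 libraries compared. At left Oasl1 and Oas1c lie near 0 and Oasl2 lies at 1.43 and 1.46. At right Oas2 and Oas3 lie furthest above 0 in both pairs, and the intervals of Oas1c, Oasl1 and Oasl2 also lie above 0 in both.

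Whether hypoxia altered the response to IFN-γ could be described but not tested with 1 library per condition. The IFN-γ change in hypoxia minus that in normoxia lay inside its 95% counting interval around 0 for 7 of the 8 genes and outside it for Oas1b, while 30.3% of all genes tested lay outside. For Oas1b the log2 ratio was 0.89 (0.73 to 1.06) in normoxia and 1.17 (1.01 to 1.33) in hypoxia, a difference of 0.28 (0.05 to 0.50). That difference is within -0.36 to 0.40, the range that holds the central 95% of these differences among 10443 genes whose lowest library had 100 counts or more. For Oasl2 the difference was 0.03 (-0.04 to 0.10) and for Oas3 -0.04 (-0.12 to 0.04). The library with both stimuli exceeded the one with neither by 3.07-fold for Oasl2 (2.97 to 3.18), 2.62-fold for Oas3 (2.51 to 2.73) and 2.58-fold for Oas2 (2.24 to 2.98), and by 1.02-fold for Oasl1 (0.980 to 1.06).

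Other genes tied to 2-5A were Abce1, Akap7 and Pde12, none of which passed the test for IFN-γ. Abce1, which recycles ribosomes and also acts in the 2-5A pathway, was lowered by hypoxia by 0.14 on the log2 scale (edgeR adjusted p = 0.0472). Akap7, which contains a domain able to cleave 2-5A, was raised by hypoxia by 0.29 (edgeR adjusted p = 0.00439). Pde12, another enzyme that degrades 2-5A, had log2 changes of -0.05 with IFN-γ and 0.02 with hypoxia. Of the 3 genes, IFN-γ raised 0 and lowered 0, against 4.76% and 1.1% of all genes tested. Hypoxia raised 1 and lowered 1, against 8.21% and 6.83% of all genes tested.

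The 4 other Oas1 copies were hardly counted. Oas1d, Oas1e and Oas1f had at most 5 counts in any library and were not tested. Oas1h had 40, 43, 39 and 64 counts, with a log2 change of 0.30 with IFN-γ (standard error 0.327, edgeR adjusted p = 0.825).

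Other sensors of double-stranded RNA and their partners moved with IFN-γ as most of the synthetases did. Of 10 such genes, IFN-γ raised 8 and lowered 0, against 4.76% raised and 1.1% lowered among all genes tested. The median log2 change of the 10 was 0.68. The 8 raised were Eif2ak2, which encodes the kinase PKR, Ddx58, Ifih1, Dhx58, Tlr3, Adar, Zbp1 and Irf7. The adaptor Mavs and the factor Irf3 did not pass, at 0.03 and -0.11. Hypoxia raised 2 of the 10, Tlr3 and Zbp1, against 8.21% of all genes tested. Zbp1, a sensor of Z-form nucleic acid, had the largest change of the 10 with IFN-γ, from 120 and 159 counts in the controls to 2531 and 3214. Irf7, whose translation Oasl1 restrains, had 339, 309, 788 and 878 counts, a log2 change of 1.37 (standard error 0.103, edgeR adjusted p = 2.71e-38).

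IFN-γ raised all 4 transcription factor genes of the interferon response followed here, against 4.76% of all genes tested, with a median log2 change of 1.16. Whether they act on the synthetase genes in these cells was not tested. Stat2 and Irf9, which belong to the complex that binds the ISRE, changed by 1.51 and 0.82 on the log2 scale, and Irf1 and Irf2 by 2.43 and 0.79. Hypoxia raised Stat2 and Irf1, by 0.25 and 0.24, against 8.21% of all genes tested raised by it. Of 4 interferon receptor genes, IFN-γ raised 0 and lowered 1, against 4.76% and 1.1% of all genes tested. The gene lowered was Ifngr1, by 0.25 on the log2 scale (edgeR adjusted p = 0.0308), and hypoxia raised the same gene.

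The genes whose pattern was most like that of Oasl2 were 4933412E12Rik, Parp10, H2-Q4, Parp9 and Stat2. Likeness was the Euclidean distance between the 4 centred log2 values, over 4 libraries and 11481 candidate genes averaging 50 counts or more, and it ran from 0.0389 to 0.105 for these 5. For the summed counts of all 8 genes the nearest were Nub1, Samd9l, Fbxw17, Casp4 and H2-K1, at distances of 0.0639 to 0.107. With 4 libraries, such distances say little more than that the IFN-γ and hypoxia changes are alike in size.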

How the data were processed

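RNA-seq counts of MC38 cells were taken as deposited. The authors aligned the reads with HISAT2, and the submitters' processing notes name featureCounts and the build mm10. Versions, settings for strand and for reads matching several genes, and the annotation are not given in the sources used here, so close paralogs may have lost or exchanged reads. The deposited values are whole-number counts per gene, without normalization. Symbols came from RefSeq's table for GRCm38.p6, which matched 25275 of 27179 IDs.

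The main test was edgeR 4.0.16 (R 4.3.3) with quasi-likelihood fitting, TMM factors, the default filter on low counts (minimum 10), oxygen and IFN-γ as additive terms, and Benjamini-Hochberg adjustment over all 13580 genes. With 1 library per condition, the spread is the departure from additivity (1 residual degree of freedom per gene, pooled across genes), which mixes culture differences with any interaction. Each standard error was calculated back from the test, as the absolute log2 change over the square root of its F statistic. It rests on that same spread and not on replicates. Single-pair ratios used TMM-scaled counts plus 0.5, with Clopper-Pearson intervals at 95%. Intervals and the limit of 3 counts cover counting error only. Lengths, shared 31-base words and positions came from GENCODE M21 transcripts and RefSeq, both GRCm38. All 8 members were named, with genes of fixed lists and the 5 nearest genes by pattern. The members and lists were chosen with earlier results of these data known. Some genes of the fixed lists are not reported here. Alternatives were DESeq2 1.42.0 (size factors and Wald test), other filters, the other stimulus left out, each library left out, total counts, 5 counts added and the shortest transcript. Added after seeing the data were unadjusted p-values and a minimum log2 change of 1.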

Additional observations from a re-analysis of the deposited data

Results flagged for a closer look

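Genes of the 2-5A pathway whose single-pair log2 ratios differed in sign between the pairs are given here. With IFN-γ, Abce1 changed by 0.0044 in normoxia and -0.154 in hypoxia, Pde12 by -0.117 and 0.0218, and Akap7 by 0.0751 and -0.0096. With hypoxia, Pde12 changed by -0.0506 in control cells and 0.0878 with IFN-γ. These differences were not tested, since each value compares 2 libraries. None of the 8 synthetase genes or their sums differed in sign between the pairs in this way.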

How the results depend on the processing

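The 6 members raised by IFN-γ numbered 6 under DESeq2's size factors, DESeq2's Wald test, both other filters and unadjusted p-values, 4 with oxygen left out of the model, and 2 when a log2 change of at least 1 was also required. Leaving out 1 library gave 0 to 6. Members raised by hypoxia numbered 3 in the main model, 2 without a filter, 1 by DESeq2's Wald test, 0 with IFN-γ left out, 0 under that minimum log2 change and 5 at an unadjusted p under 0.05 in edgeR (2 in DESeq2). Leaving out 1 library gave 0 in each case. Over all genes, IFN-γ raised 647 and lowered 149 in the main model, 353 and 16 by DESeq2's Wald test, 239 and 3 with oxygen left out, and 554 and 71 without a filter. Hypoxia raised 1115 and lowered 927 in the main model, 362 and 214 by DESeq2's Wald test, 150 and 26 with IFN-γ left out, and 773 and 700 without a filter. At an unadjusted p under 0.05, hypoxia raised 1913 of the 13580 genes in edgeR and 851 in DESeq2, and IFN-γ raised 1104 and 610. With the minimum log2 change of 1, hypoxia raised 107 genes and IFN-γ 238. No member was lowered by either stimulus in any of these fits, also at an unadjusted p under 0.05 in edgeR and DESeq2. With 3 libraries the other stimulus cannot stay in the model, so by construction each such fit mixes both stimuli. The log2 change with hypoxia then ran from -0.22 to 0.95 for Oas2, -0.16 to 0.99 for Oas3 and -0.73 to 1.06 for Oasl2. No paired analysis was possible because each condition has 1 library and the labels number no cultures; oxygen in the additive model already pairs the libraries by oxygen level. The size of the adjusted p for IFN-γ depended strongly on the fit. In edgeR with DESeq2's size factors it was 2.17e-17 for Oasl2 and 2.63e-13 for Oas3. In edgeR without a filter it was 1.99e-13 and 1.93e-10. The log2 changes in these fits were 1.45 and 1.46 for Oasl2 and 0.98 and 0.99 for Oas3. Total counts in place of TMM, or 5 counts added, kept all single-pair ratios and differences of the members within their counting intervals. Leaving out Oasl2 moved the log2 ratio of the sum with IFN-γ to 0.56 in normoxia and 0.58 in hypoxia. Depth limits the report only for the interferon genes and the rare Oas1 copies.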
